A study of Arabidopsis thaliana with 8 samples.

Results

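The nuclear genes for the subunits of photosystem I and photosystem II and for their light-harvesting antenna were followed in rosettes of Arabidopsis thaliana. The set was chosen by gene identifier and held 44 of the 34133 genes with a deposited value. It consisted of 21 antenna genes (6 *LHCA* genes of photosystem I and 15 *LHCB* genes of photosystem II) and 23 core genes (12 *PSA* genes of photosystem I and 11 *PSB* genes of photosystem II). Core here means every subunit outside the antenna, and *PSBS*, a sensor for the dissipation of excess light, was counted with it.

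The plants were 3 weeks old and were either Col-0 wild type (WT) or the *ros1* mutant, a hypomorphic T-DNA insertion line (SALK_064264) of the gene for a DNA glycosylase that removes methylated cytosine. IM stands for 10.6 g ha-1 imazethapyr, an herbicide that blocks acetolactate synthase, applied with 0.5% v/v of the adjuvant Dash. The 4 groups were named by genotype and treatment, WT control and WT IM in wild type and *ros1* control and *ros1* IM in the mutant, each with 2 libraries, and each library was made from the whole rosettes of 2 plants harvested after 48 h. The sample titles call the controls mock, while the protocol speaks of non-treated plants, and what a mock treatment held is not stated. Untreated here means without imazethapyr. Whether the controls received Dash is not stated, so that the adjuvant and imazethapyr cannot be told apart.

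The deposited value of a gene is 1 FPKM (sequenced fragments, scaled by transcript length and by library size) for each group, pooled by the authors over both libraries. Because no library has a value of its own, the spread between plants is unknown, every difference is given as a description, and none was tested. Values in *ros1* IM were deposited for 17284 genes, against 34133 genes in either control group. By which rule these genes were listed was not checked, so shares over genes with a *ros1* IM value may come from a selected list. All 44 genes of the set had a value in every group. *ROS1* itself, as a check of the labels, had 25.0 FPKM in WT control, 16.7 in WT IM, 19.0 in *ros1* control and 4.08 in *ros1* IM. Between the control groups it was 1.32-fold lower in the mutant, so that the transcript level alone set the mutant little apart from wild type in the controls. As for the tissue, the leaf mesophyll genes *RBCS1A*, *RBCS2B*, *RBCS3B*, *RCA* and *CA1* stood between 4358 and 27669 FPKM in WT control, whereas the 5 flower and 3 root markers stood between 0 and 0.488 FPKM.

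Both photosystems are protein complexes of the thylakoid membrane. Photosystem II takes electrons from water and passes them through the cytochrome b6f complex and plastocyanin to photosystem I, which reduces ferredoxin. The chlorophyll-carrying reaction centre proteins are encoded in the chloroplast, while the antenna and most of the peripheral subunits are encoded in the nucleus, where their genes are known as classic targets of light and of signals from the plastid. The chloroplast-encoded genes were not followed in these tables: the 18 photosystem genes of the chloroplast genome that were matched by position are all listed at 0 in both control groups.

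Several antenna proteins are made from near-identical gene copies, and the reference sequence shows how far reads of 100 bases can tell them apart. *LHCB1.1* (AT1G29920, chr1:10474656-10475969), *LHCB1.2* (AT1G29910, chr1:10472280-10473502) and *LHCB1.3* (AT1G29930, chr1:10477885-10479114) lie side by side on chromosome 1 of TAIR10.1. Their coding sequences have 804 bases and are 95.6% to 96.4% identical, with 47 positions at which not all 3 are alike. Coding bases 145 to 264, the stretch of 120 bases with the most such positions, are shown with the 11 differing positions in capitals.
LHCB1.1: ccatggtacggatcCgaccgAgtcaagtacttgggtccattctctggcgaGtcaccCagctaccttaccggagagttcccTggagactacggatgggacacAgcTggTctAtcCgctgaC
LHCB1.2: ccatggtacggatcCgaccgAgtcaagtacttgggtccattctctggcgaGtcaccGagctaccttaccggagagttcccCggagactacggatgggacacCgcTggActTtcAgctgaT
LHCB1.3: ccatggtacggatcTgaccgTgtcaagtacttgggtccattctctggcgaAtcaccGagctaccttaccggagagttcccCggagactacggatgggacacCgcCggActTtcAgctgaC

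*LHCB2.1* (AT2G05100, chr2:1822990-1824480) and *LHCB2.2* (AT2G05070, chr2:1799234-1800472) are a second such pair, with 798 coding bases that are 96.6% identical. Coding bases 55 to 174 are shown, with the 14 of the 27 differing positions that fall there in capitals.
LHCB2.1: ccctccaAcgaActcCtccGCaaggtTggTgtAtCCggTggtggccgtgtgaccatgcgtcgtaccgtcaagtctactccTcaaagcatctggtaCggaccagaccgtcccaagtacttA
LHCB2.2: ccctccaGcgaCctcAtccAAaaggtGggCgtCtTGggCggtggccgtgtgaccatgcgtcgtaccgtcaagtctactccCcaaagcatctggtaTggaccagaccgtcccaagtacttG

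In spite of this likeness, few windows of 100 bases were the same in more than 1 gene. For *LHCB1.1*, 4.44% of the windows of the transcript also occurred in another gene, against 1.51% for *LHCB1.2* and 4.07% for *LHCB1.3*. The shares were 7.43% for *LHCB2.1* and 12.4% for *LHCB2.2*. Reads from such windows, or reads placed with mismatches, may have been split between copies, so the values of single copies are less certain than their sum. Of the 44 genes, 29 had no window in common with another gene. Larger shares came from neighbours annotated on the same stretch, at 55.8% for *PSAG*, 47.0% for *PSAH1*, 36.3% for *LHCB2.3* and 24.03% for *PSAE1*. With 17 genes overlapping another annotated gene and a library kit that does not mark the strand, reads of both partners cannot be told apart there.

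The 250 bases before the annotated gene start were searched on both strands for 4 short motifs known from light-regulated or general promoters: the G-box (CACGTG), the I-box (GATAAG), the CCAAT-box (CCAAT) and the TATA-box (TATAAA), counting matches that overlap each other. The CCAAT-box was present in 19 of 21 antenna promoters (90.5%) and in 9 of 23 core promoters (39.1%), against 46.0% of 27443 protein-coding promoters. *LHCA5* and *LHCB6* were the antenna genes without it. For the G-box the counts were 5 of 21 antenna and 5 of 23 core promoters, against 6.49% of all promoters. The I-box was found in 4 antenna and 5 core promoters (12.3% of all promoters), and the TATA-box in 8 and 11 (47.3% of all promoters). A match is a run of letters and not a shown binding site. The promoters of 3 genes are given, with CCAAT-boxes (ATTGG on the other strand) and G-boxes in capitals, for the most abundant antenna gene and for a pair of copies of which *LHCB4.2* alone was past 2-fold between the control groups.
LHCB1.3, chr1:10477635-10477884, plus strand: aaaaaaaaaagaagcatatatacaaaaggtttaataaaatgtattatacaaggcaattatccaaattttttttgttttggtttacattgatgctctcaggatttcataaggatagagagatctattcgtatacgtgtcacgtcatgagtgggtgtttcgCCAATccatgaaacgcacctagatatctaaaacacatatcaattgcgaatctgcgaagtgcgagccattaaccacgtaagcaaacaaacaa
LHCB4.1, chr5:208616-208865, plus strand: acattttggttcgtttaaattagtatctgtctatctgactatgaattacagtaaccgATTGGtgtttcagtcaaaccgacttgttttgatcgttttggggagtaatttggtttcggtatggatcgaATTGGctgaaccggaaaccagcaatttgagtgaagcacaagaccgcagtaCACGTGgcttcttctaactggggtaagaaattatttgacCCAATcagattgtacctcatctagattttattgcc
LHCB4.2, chr3:2717307-2717556, plus strand: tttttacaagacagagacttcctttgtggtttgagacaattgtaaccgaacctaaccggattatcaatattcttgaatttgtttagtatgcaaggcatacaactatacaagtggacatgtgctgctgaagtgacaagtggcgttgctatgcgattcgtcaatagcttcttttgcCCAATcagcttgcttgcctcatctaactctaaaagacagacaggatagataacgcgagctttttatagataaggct

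In untreated rosettes these genes were among the most abundant nuclear transcripts. The 44 genes together held 9.53% of the summed FPKM of all genes in untreated wild type and 9.57% in untreated *ros1*. Of the 50 genes with the highest FPKM, 20 belonged to the set in WT control and 21 in *ros1* control. In WT control 30 of the 44 stood at 1000 FPKM or more and 41 at 100 or more. After treatment the share was 3.29% of the summed FPKM in WT IM and 0.468% in *ros1* IM. Only 4 genes still reached 1000 FPKM in WT IM, namely *LHCB1.3*, *PSBR*, *PSBO1* and *LHCA2*, and none did in *ros1* IM, where 11 reached 100 FPKM.

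**Figure D1:**
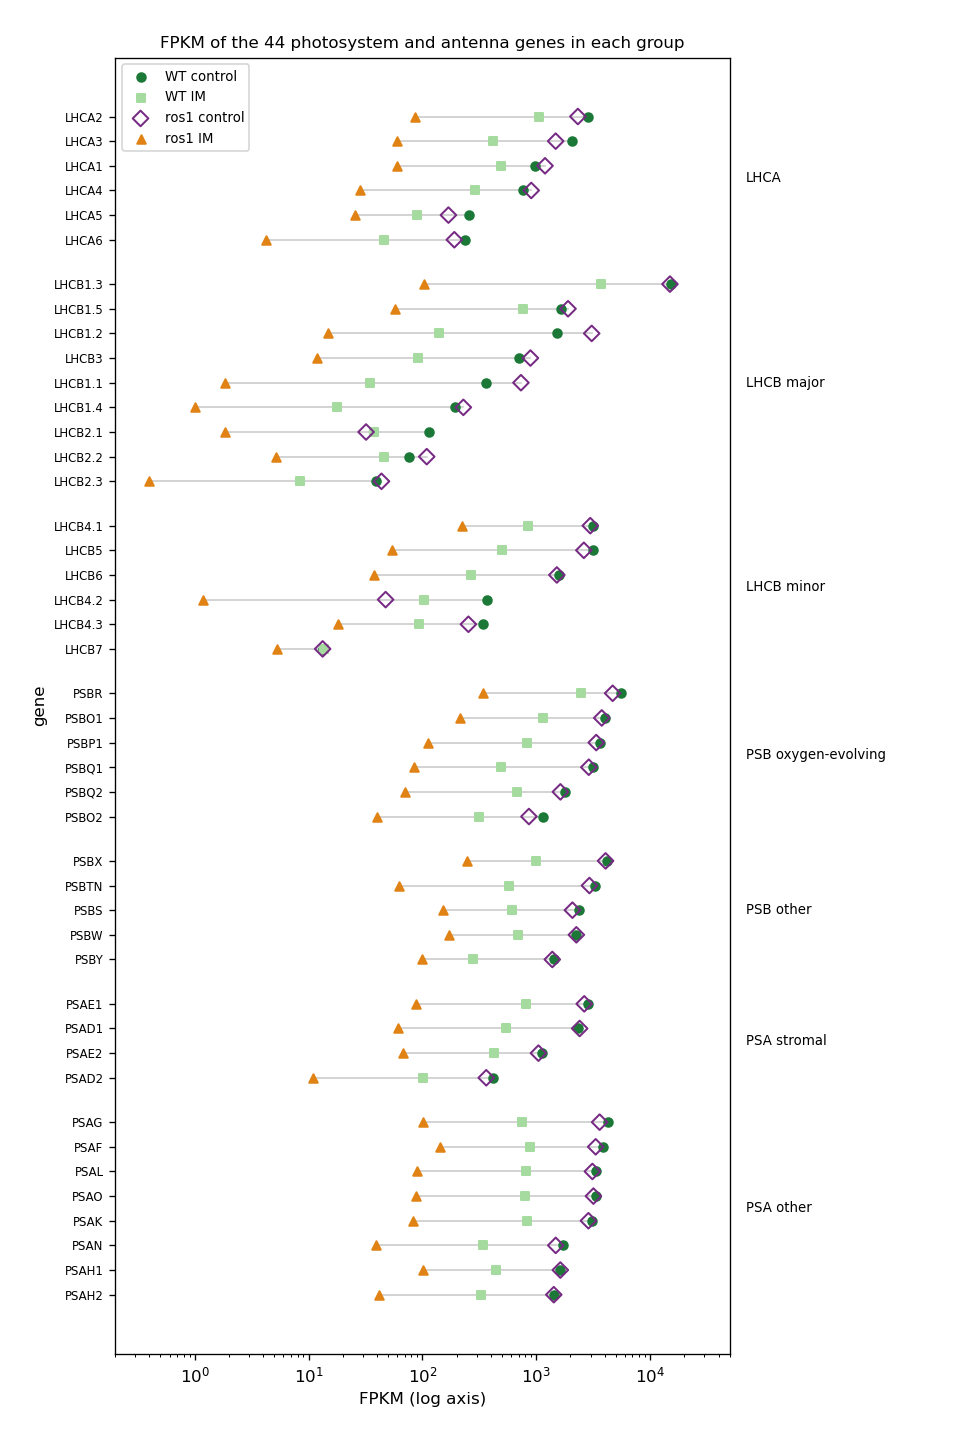
FPKM of each of the 44 genes (log axis) in WT control (filled circles), WT IM (squares), ros1 control (open diamonds) and ros1 IM (triangles), 1 value per group pooled over 2 libraries, in 7 classes ordered by their level in WT control. The values of ros1 IM are the lowest of the row for all 44 genes, and both controls lie close together except for a few LHCB genes.

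*LHCB1.3*, a gene of the trimeric antenna LHCII, had the highest level of the set, with 15154 FPKM in WT control, 3684 in WT IM, 14958 in *ros1* control and 103 in *ros1* IM. It ranked 2 among all genes in both controls. Behind it in the antenna came *LHCB4.1* (the linker CP29) and *LHCB5* (the linker CP26). *LHCB4.1* had 3137, 847, 2984 and 222 FPKM and *LHCB5* had 3132, 502, 2621 and 53.8 FPKM, in the same order of groups. The lowest antenna genes were *LHCB7*, a rare antenna relative, with 13.3, 13.7, 13.3 and 5.29 FPKM, and the LHCII gene *LHCB2.3* with 39.4, 8.35, 43.7 and 0.398 FPKM. Core genes were more even. *PSBR*, a subunit beside the oxygen-evolving complex, was highest with 5513, 2479.6, 4693 and 338 FPKM, followed by *PSAG* with 4279.5, 750.2, 3606 and 102 FPKM and by *PSBX* with 4217, 998, 4067 and 249 FPKM. *PSAD2*, 1 of 2 copies for the ferredoxin-docking subunit PsaD, was the lowest core gene with 414, 100.4, 364 and 11.0 FPKM.

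The first comparison asked how imazethapyr changed these transcripts in wild type. Nearly the whole set was lower: 42 of 44 genes were at least 2-fold lower in WT IM than in WT control and 0 were at least 2-fold higher, where a gene was counted on the log2 ratio of FPKM + 1. Among all 32920 genes with both values, 8.93% were at least 2-fold lower and 6.62% at least 2-fold higher. The share that was lower was 14.6% among genes that reached 1 FPKM in both groups and 20.2% among those with at least 10 FPKM in WT control. The median log2 ratio of the set was -2.04, against 0.00 for all genes that reached 1 FPKM in both groups. The exceptions were *LHCB7* at 0.04 and *LHCB2.2* at -0.72. *LHCA1* stood just inside the threshold, being 2.003-fold lower, with 984 FPKM in WT control and 491 in WT IM.

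LHCII genes showed the widest range in wild type. Their 9 log2 ratios ran from -3.43 to -0.72, with a median of -2.11. *LHCB1.2* had 1529.7 FPKM in WT control, 141 in WT IM, 3072 in *ros1* control and 14.9 in *ros1* IM, and was 10.8-fold lower in WT IM than in WT control. For *LHCB1.4* the values were 194, 17.8, 229 and 1.01 FPKM and the difference 10.9-fold, and for *LHCB1.1* they were 361, 34.7, 734 and 1.85 FPKM and 10.4-fold. *LHCB3*, which encodes the third kind of LHCII protein, was 7.73-fold lower, with 709.6, 91.8, 889.6 and 11.8 FPKM. By contrast *LHCB1.5* was 2.16-fold lower, with 1666, 772, 1903 and 56.9 FPKM. Thus 3 of the 5 *LHCB1* copies differed from their control by over 10-fold, and *LHCB1.3*, the most abundant one, by 4.11-fold.

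The antenna of photosystem I was less spread in wild type than LHCII, with an SD over genes of 0.54 against 1.03. The linker class of photosystem II, in which *LHCB7* was counted, was nearly as spread as LHCII, with an SD of 0.97. Among the linkers, *LHCB5* and *LHCB6* (CP24) were 6.24-fold and 6.02-fold lower in WT IM, and the 3 *LHCB4* genes between 3.53-fold and 3.70-fold lower. The 6 *LHCA* genes, whose products form a belt on 1 side of photosystem I, had the smallest median of the 7 classes, -1.47. *LHCA3* had 2065 FPKM in WT control, 421 in WT IM, 1482 in *ros1* control and 60.0 in *ros1* IM and was 4.90-fold lower in WT IM. *LHCA6*, which with *LHCA5* helps to join photosystem I to the NDH complex, was 5.15-fold lower. *LHCA1*, *LHCA2*, *LHCA4* and *LHCA5* lay between 2.003-fold and 2.88-fold lower.

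All 23 core genes were at least 2-fold lower in WT IM, over a narrow range from -2.68 to -1.15. The oxygen-evolving subunits on the lumen side of photosystem II spanned this range. *PSBQ1* was 6.43-fold lower, with 3151, 489.7 and 2896 FPKM in the first 3 groups and 84.3 in *ros1* IM. *PSBR* was 2.22-fold lower, the smallest difference in the core. Among the remaining *PSB* genes, *PSBTN* and *PSBY* were 5.76-fold and 5.16-fold lower and *PSBS* 3.85-fold. For photosystem I, the genes of the stromal ridge that docks ferredoxin (*PSAD* and *PSAE*) had a median log2 ratio of -1.92. The 8 further *PSA* genes (*PSAF* and *PSAN* at the plastocyanin side, *PSAH*, *PSAL* and *PSAO* where LHCII can dock, and *PSAG* and *PSAK* beside the antenna) had a median of -2.11, between -2.51 for *PSAG* and -1.86 for *PSAH1*.

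**Figure D2:**
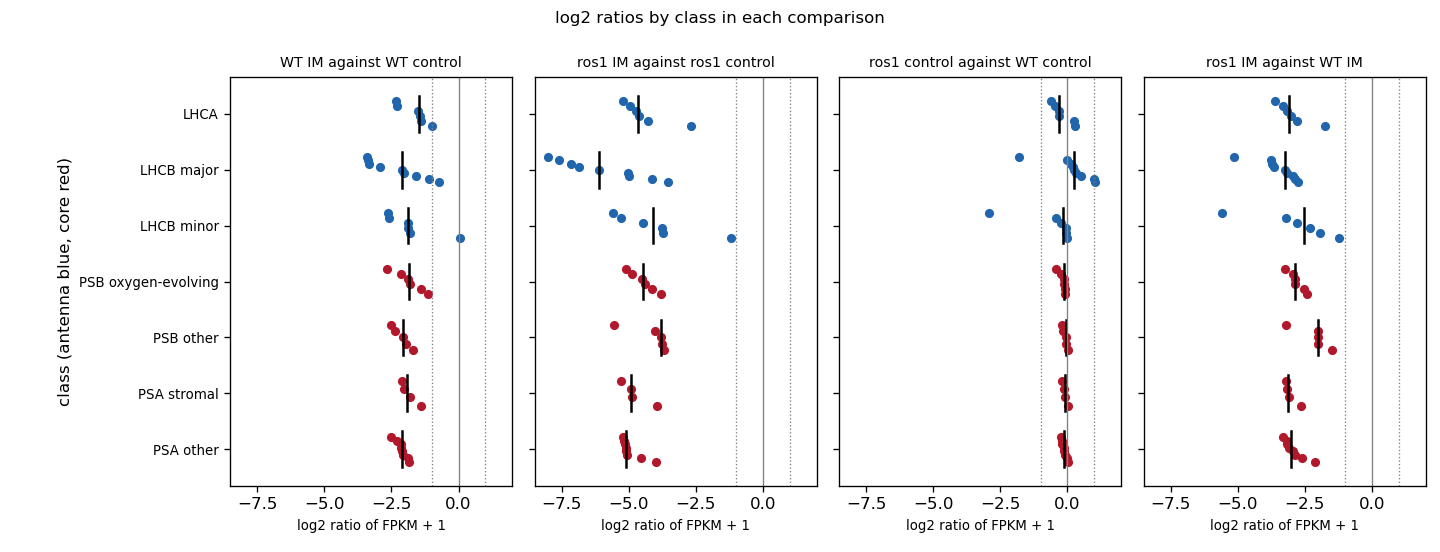
Log2 ratio of FPKM + 1 (horizontal axis) of each gene in 4 comparisons, by class, with antenna genes in blue and core genes in red. Bars are class medians, the solid line marks no difference and dotted lines a 2-fold difference. In the IM comparisons nearly all points lie left of -1, and in ros1 control against WT control the core points lie between -0.41 and 0.03.

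In *ros1* the same comparison gave a larger difference for every gene. All 44 were at least 2-fold lower after treatment, with a median log2 ratio of -4.89 and a range from -8.01 to -1.18. Of the 17284 genes with both values, 22.2% were at least 2-fold lower and 17.0% at least 2-fold higher. These shares cover only the genes that were listed with a *ros1* IM value. For all genes that reached 1 FPKM in both groups the median was 0.14 in this comparison, and the values of the set are not corrected for it.

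LHCII genes had the lowest median of the 7 classes in *ros1*, a median log2 ratio of -6.12. With treated and untreated *ros1* compared, *LHCB1.1* was 397-fold lower, *LHCB1.4* 228-fold, *LHCB1.2* 206-fold and *LHCB1.3* 145-fold. *LHCB2.3* was 110-fold lower and *LHCB3* 75.5-fold. The copies *LHCB1.1*, *LHCB1.4* and *LHCB2.1* were left with 1.01 to 1.85 FPKM and *LHCB2.3* with 0.398 FPKM. *LHCB2.1*, with 115 FPKM in WT control, 37.7 in WT IM, 32.0 in *ros1* control and 1.84 in *ros1* IM, differed by 17.4-fold between treated and untreated *ros1*. Of the linkers, *LHCB5*, *LHCB6* and *LHCB4.2* were between 40.2-fold and 48.7-fold lower, while *LHCB4.1* was 13.4-fold and *LHCB4.3* 14.1-fold lower. In the antenna of photosystem I the differences ran from 6.63-fold for *LHCA5*, with 257, 89.1, 169 and 25.5 FPKM over the groups, to 45.2-fold for *LHCA6*.

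Of the 12 core genes of photosystem I, 9 lay between 30.1-fold and 39.6-fold lower in *ros1*. *PSAG*, *PSAH2*, *PSAK*, *PSAL*, *PSAN*, *PSAO* and *PSAD1* were between 34.6-fold and 39.6-fold lower, *PSAD2* 32.9-fold and *PSAE1* 30.1-fold. *PSAF*, *PSAH1* and *PSAE2* differed less, at 23.4-fold, 16.2-fold and 15.6-fold. In photosystem II, *PSBTN* was 47.1-fold and *PSBQ1* 34.4-fold lower. The small membrane subunits *PSBW*, *PSBX* and *PSBY* and the light-dissipation subunit *PSBS* were at the low end, between 13.1-fold and 16.4-fold lower. With them stood *PSBR* at 13.9-fold and *PSBO1*, a gene of the manganese-stabilising protein, at 17.6-fold. Accordingly the highest levels of the set left in *ros1* IM were those of *PSBR* (338 FPKM), *PSBX* (249 FPKM), *LHCB4.1* (222 FPKM) and *PSBO1* (214 FPKM).

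The difference between the genotypes in their response was the log2 ratio in *ros1* minus that in wild type. Over the 44 genes it ran from -5.13 to -1.16, with a median of -2.87. This difference was not computed over all genes, so no background stands beside these values. *LHCB1.3* stood lowest at -5.13, followed by *LHCB1.1* at -4.67 and *LHCB1.2* at -4.16. At the other end were *LHCA5* at -1.16, *LHCB7* at -1.22 and *PSBY* at -1.43. Among the classes, LHCII had a median of -3.46 and the *PSB* genes outside the oxygen-evolving group one of -1.95. Genes that were lower in wild type tended to be lower in *ros1* too. Across the 44 genes, whose values in a comparison share the same libraries, Pearson's r of both responses was 0.77 and Spearman's rho 0.70. Within the 21 antenna genes r was 0.81, and within the 23 core genes 0.57.

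**Figure D3:**
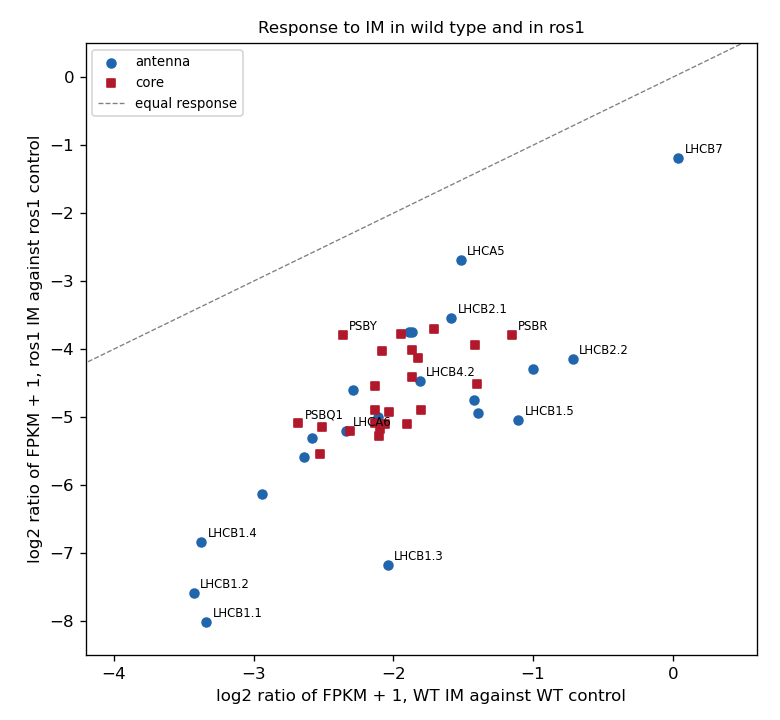
Log2 ratio of FPKM + 1 of IM against control in wild type (horizontal axis) and in ros1 (vertical axis) for the 44 genes, antenna as circles and core as squares, with a dashed line where both responses would be equal. All points lie below the line, LHCB1.3 farthest from it with log2 ratios of -2.04 in wild type and -7.17 in ros1.

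Without herbicide the genotypes were close, apart from a few *LHCB* copies. Between the control groups, 2 of 44 genes were at least 2-fold lower and 2 at least 2-fold higher in *ros1*, against 4.42% and 2.58% of 34133 genes. Among genes with at least 10 FPKM in WT control the share that was lower was 8.13%, so the count of 2 lower genes is near the background and is no result about the set. The median log2 ratio of the set was -0.10. All 23 core genes lay between -0.41 and 0.03, with a median of -0.12 and an SD over genes of 0.10. The 4 genes past 2-fold all belonged to the antenna of photosystem II. *LHCB4.2* had 368 FPKM in WT control, 104 in WT IM, 47.5 in *ros1* control and 1.18 in *ros1* IM, which is 7.75-fold less in the untreated mutant. Its copy *LHCB4.1* differed by 1.05-fold and *LHCB4.3*, with 342, 93.0, 254 and 18.0 FPKM, by 1.35-fold. *LHCB2.1* was 3.60-fold lower in *ros1* control, whereas the near-identical *LHCB2.2*, with 76.9, 46.4, 109 and 5.20 FPKM, was 1.42-fold higher. *LHCB1.1* and *LHCB1.2* were 2.04-fold and 2.01-fold higher, close to the threshold. After centring on all genes 1 of these remained past it, and 0 did after centring on the reference genes or with the *LHCB1* copies summed. They share their stretch of chromosome 1 with *LHCB1.3*, for which both controls differed by 1.01-fold. Among the genes under 2-fold, those farthest below wild type were *LHCA5* (1.52-fold lower), *LHCA3* (1.39-fold), *LHCB4.3* (1.35-fold) and *PSBO2* (1.33-fold). Those farthest above were *LHCB2.2*, *LHCB3* (1.25-fold higher) and *LHCA1* (1.22-fold higher, at 1195 FPKM in *ros1* control and 59.9 in *ros1* IM).

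Set against each other, the treated groups again differed for the whole set. All 44 genes were at least 2-fold lower in treated *ros1* than in treated wild type, with a median log2 ratio of -2.96. The background was 17.9% lower and 10.7% higher of 17187 genes, under the same limit on *ros1* IM. *LHCB4.2*, already low in untreated *ros1*, was 88.3-fold lower and *LHCB1.3* 35.8-fold. *LHCB2.3*, *LHCB2.1* and *LHCB1.1* were 21.0-fold, 20.5-fold and 18.7-fold lower and *LHCB1.5* 13.6-fold. The smallest differences were those of *LHCB7* (2.59-fold), *PSBY* (2.83-fold) and *LHCA5* (3.49-fold). This comparison shares its groups with the previous ones and is no separate support for them.

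Antenna and core differed in spread more than in their medians. The median log2 ratio of the antenna minus that of the core was 0.17 in WT IM against WT control, -0.05 in *ros1* IM against *ros1* control, 0.10 in *ros1* control against WT control and -0.28 in *ros1* IM against WT IM. Both values for *ros1* IM turned positive with a pseudocount of 10 (0.04 and 0.49). The SD over genes was 0.90 in the antenna and 0.37 in the core for the wild-type response, and 1.62 and 0.59 for the *ros1* response. For the untreated genotypes it was 0.87 and 0.10. The 15 *LHCB* genes had SDs of 1.00 and 1.81, and the 6 *LHCA* genes of 0.54 and 0.90, in the responses of wild type and *ros1*. Between the photosystems, the median of photosystem I minus that of photosystem II was -0.06 in the wild-type response and -0.43 in the *ros1* response. In the core alone, the medians of photosystem I and II were -2.08 and -1.94 in wild type, and -5.09 and -4.13 in *ros1*.

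Where a subunit has several gene copies, the share of each copy in their summed FPKM was compared among the groups. The 5 *LHCB1* genes summed to 18904 FPKM in WT control, 4649.5 in WT IM, 20897 in *ros1* control and 178 in *ros1* IM. *LHCB1.3* held 80.2%, 79.2%, 71.6% and 58.0% of that sum. As a sum, *LHCB1* was 4.07-fold lower in WT IM and 118-fold lower in *ros1* IM than in the control of its genotype, and 1.11-fold higher in *ros1* control than in WT control. For *LHCB2* the sum of 3 genes was 231, 92.4, 185 and 7.44 FPKM. *LHCB2.1* held 49.8% of it in WT control and 17.3% in *ros1* control. In *LHCB4* the share of *LHCB4.1* was 81.5% in WT control and 90.8% in *ros1* control.

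**Figure D4:**
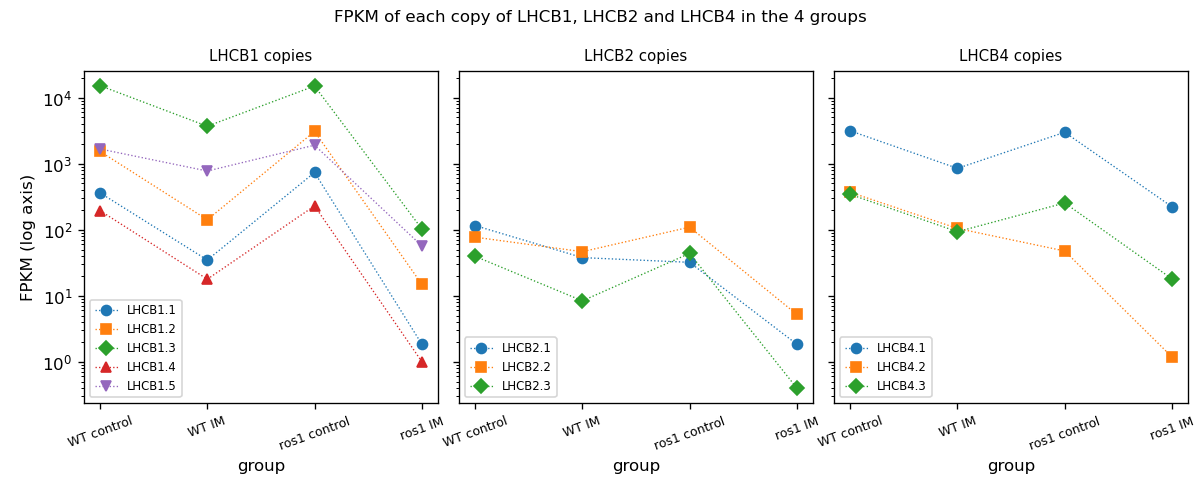
FPKM (log axis) of each copy of LHCB1, LHCB2 and LHCB4 in the 4 groups, with dotted lines to guide the eye and 1 pooled value per point. LHCB4.2 and LHCB2.1 are lower in untreated ros1, at 47.5 against 368 FPKM and 32.0 against 115 FPKM, while their sister copies are not at least 2-fold lower.

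In the core, copies kept their order in most cases. *PSBO1*, with 4048, 1142, 3763 and 214 FPKM, held between 77.9% and 84.3% of the *PSBO* sum, the rest being *PSBO2* with 1151, 314, 863 and 39.7 FPKM. *PSAD1*, with 2350.2, 546, 2407 and 60.8 FPKM, held between 84.5% and 86.9% of the *PSAD* sum. In the *PSBQ* pair the order turned in WT IM only: *PSBQ1* held 63.9% in WT control and 42.1% in WT IM. Its share was 64.0% in *ros1* control and 54.6% in *ros1* IM. *PSBQ2* had 1778 FPKM in WT control, 673 in WT IM, 1631 in *ros1* control and 70.2 in *ros1* IM. *PSAE1* had 2824, 808, 2641 and 87.9 FPKM, and its share of the *PSAE* sum was 71.4% in WT control and 56.7% in *ros1* IM, beside *PSAE2* with 1134, 424, 1046 and 67.0 FPKM. *PSAH1* and *PSAH2* were nearly even in WT control, with 1623 and 1435 FPKM. *PSAH1* had 445, 1628 and 100.5 FPKM in WT IM, *ros1* control and *ros1* IM, and *PSAH2* 327, 1426 and 41.2 FPKM, so that the share of *PSAH1* was 53.1% in WT control and 70.9% in *ros1* IM. *PSAE1* and *PSAH1* are among the genes that overlap a neighbour.

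Genes that work next to the photosystems were mostly lower as well. In electron transport 8 of 11 genes were at least 2-fold lower in WT IM and 10 of 11 in *ros1* IM, with medians of -1.70 and -3.24, against -2.04 and -4.89 for the photosystem set. For this and the following lists, the share of all genes at least 2-fold lower was 8.93% in WT IM and 22.2% in *ros1* IM. Among genes with at least 10 FPKM in WT control it was 20.2% and 28.7%. *PETE2*, the main plastocyanin gene, had 4343, 685, 3790.1 and 151 FPKM and *FD2*, a leaf ferredoxin gene, 4722, 844, 4174 and 269 FPKM. *FD1* had a log2 ratio of -2.17 in wild type. The 3 nuclear genes of the chloroplast ATP synthase, *ATPC1*, *ATPD* and *ATPG*, were all lower in both genotypes, with medians of -1.93 and -3.40. Of 13 genes for assembly and repair of photosystem II, 9 were at least 2-fold lower in WT IM and 12 in *ros1* IM, led in wild type by *PPL1*, *PSB28* and *PSB27* with log2 ratios of -2.60, -2.21 and -2.07. Of the 4 genes that bring antenna proteins to the membrane, 3 were at least 2-fold lower in *ros1* IM. In WT IM all 4 were, with a median of -1.08. Of these, *CPSRP43* had 252, 92.2, 253 and 29.7 FPKM, and *CPSRP54* and *CPFTSY* both had log2 ratios near it in wild type, at -1.07 and -1.08.

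Relatives of the antenna did not differ as 1 group. Of 6 LHC-like genes 4 were at least 2-fold lower in both genotypes, among them *LIL3.1* and *LIL3.2*, which serve chlorophyll synthesis, at -1.91 and -1.45 in wild type. *ELIP1*, an early light-induced protein known to appear under light stress, was opposite to the antenna, with 13.1 FPKM in WT control, 681 in WT IM, 8.14 in *ros1* control and 83.9 in *ros1* IM. It was 51.9-fold higher in WT IM and 10.3-fold higher in *ros1* IM than in the control of its genotype. *ELIP2*, named after its values were seen, had 3.23, 5.54, 1.77 and 9.82 FPKM, which is 1.72-fold higher in WT IM and 5.56-fold higher in *ros1* IM. Thus 1 of the 6 genes was at least 2-fold higher in WT IM and 2 in *ros1* IM. Among all genes with both values the shares that were higher were 6.62% and 17.0%. With so few genes, these counts are no result about the list. Of the enzymes for state transitions and core phosphorylation, the kinase *STN8* was 2.33-fold lower in WT IM, and the kinase *STN7* and the phosphatase *TAP38* had log2 ratios of -0.17 and -0.01. In *ros1* IM, *STN8* and *TAP38* were at least 2-fold lower, at -2.01 and -1.22, and *STN7* stood at -0.76.

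Among 11 regulators of these genes, 2 were at least 2-fold lower and 2 at least 2-fold higher in WT IM. Among all genes that reached 1 FPKM in both groups the shares were 14.6% and 9.21%. In *ros1* IM, 4 of the 10 regulators with both values were at least 2-fold lower and 2 at least 2-fold higher. The shares of all genes there were 22.2% and 17.0%. With so few genes past 2-fold, the counts are no result about the regulators. *GLK2*, an activator of photosynthesis genes, had 59.5, 18.1, 34.9 and 7.38 FPKM. Its relative *GLK1*, named after its values were seen, had 219, 162, 164 and 84.0 FPKM and was under 2-fold in both responses. *PIF3*, a phytochrome-interacting repressor in the dark, was 2.67-fold higher in WT IM and 2.63-fold higher in *ros1* IM. *PIF4* had 2.57, 6.76, 6.64 and 1.06 FPKM, higher in WT IM and lower in *ros1* IM than in the respective control. *HY5*, *HYH* and *PIF1*, named after their values were seen, also had log2 ratios of different sign in the responses of wild type and *ros1*, at -0.12 and 1.15, -0.90 and 0.96, and 0.02 and -0.89. In wild type *HY5* and *PIF1* were far under 2-fold, and their signs there are not read as a direction. The plastid signalling genes *GUN1*, *GUN4* and *GUN5* were at least 2-fold lower in both genotypes, and *GUN4*, a helper of chlorophyll synthesis, had 181, 53.5, 161 and 6.36 FPKM. Of the 6 sigma factors, which direct the chloroplast RNA polymerase, *SIG2* and *SIG6* were at least 2-fold lower in WT IM, at -1.94 and -1.30, and *SIG4* stood at -0.99. In *ros1* IM 5 of 6 were lower.

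Other leaf transcripts were lower beside the photosystem genes. All 5 mesophyll markers were at least 2-fold lower in both genotypes, with medians of -3.14 and -5.69, and their summed FPKM was 52645 in WT control, 9256 in WT IM, 49235 in *ros1* control and 1577 in *ros1* IM. *RBCS2B*, *RBCS3B* and *CA1* led with log2 ratios of -3.33, -3.23 and -3.14 in wild type. Of the 3 epidermis markers *PDF1* was lower, with 276, 19.1, 174 and 0.622 FPKM, and so was *ATML1*. The third, *GL2*, had a log2 ratio of -0.17 in wild type and no value in *ros1* IM. The 2 phloem markers had a summed FPKM of 169, 161, 117 and 97.1, and neither was 2-fold lower in a response. None of 3 guard cell markers with values and 1 of 3 xylem markers, *XCP1*, was at least 2-fold lower in WT IM. In *ros1* IM 1 of 4 guard cell markers, *MYB60* at -1.29, and again *XCP1* at -1.30 were at least 2-fold lower. In whole rosettes, fewer cells of a type and less RNA per cell cannot be told apart, and the part of either in these differences was not tested. The reference genes lay between -0.34 and 0.40 in WT IM, and the 4 with values between -0.09 and 0.55 in *ros1* IM.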

How the data were processed

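RNA of 8 libraries, 2 per group, was sequenced after preparation with a kit that does not mark the strand. As tools, Cufflinks, TopHat2, Bowtie2 and FastQC (0.10.1) are listed in the submitters' processing notes, and TAIR10 as the build. The authors deposited FPKM values that were estimated for each group over its 2 libraries. Of the 33 deposited tables, the FPKM of the first sheets of 7 was used, with 0 unequal repeats among 118470 pairs of gene and group. The remaining columns hold the authors' own fold changes, test statistics, p-values and q-values and were not used. The complete table of WT IM breaks off after 31402 genes. *LHCB3*, *PSBO1* and *PSAN* lie outside that part, and their WT IM values came from the other tables.

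Genes were counted as lower or higher at a 2-fold difference on the log2(FPKM + 1) scale, which understates the differences of low genes. Folds of single genes are plain ratios of FPKM. List medians, counts and SDs over genes are descriptions, without tests. The calculation was tested on simulated data. Python 3.11.15 with pandas 2.3.3 and numpy 2.4.6 was used. Sequences and positions are from RefSeq TAIR10.1, matched by locus tag for all 44 genes. Each transcript was the annotated one with the longest coding sequence, and copies were compared by the coding sequences closest in length.

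Members, lists and motifs were chosen with earlier results of these data known. FPKM in every group was given for the 3 highest and 3 lowest genes in WT control of antenna and core, the 5 largest differences in each direction of each comparison, and gene copies. Of each other list up to 3 genes with the largest difference in WT IM were named. Alternatives were pseudocounts of 0.1 and 10, an FPKM of at least 1, centring on all genes or on reference genes, *LHCB1* copies summed, folds of 1.5 and 4, *PSBS* left out, and other backgrounds.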

Additional observations from a re-analysis of the deposited data

Results flagged for a closer look

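Among the photosystem and antenna genes, *LHCB7* had log2 ratios of FPKM + 1 of different sign in the genotypes, with 0.038 in WT IM against WT control and -1.18 in *ros1* IM against *ros1* control. The value in wild type stands for 13.3 and 13.7 FPKM, far under 2-fold, and is not read as a rise. Of the regulators chosen by the naming rule, *PIF4* had 1.12 in wild type and -1.89 in *ros1*. Outside that rule the regulators *HY5*, *HYH* and *PIF1* differed in sign as well, though *HY5* and *PIF1* were far under 2-fold in wild type. Each direction rests on 1 pooled value per group, and the difference between the genotypes was not tested.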

How the results depend on the processing

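No paired analysis was possible because the deposited values are pooled over both libraries of a group and carry no replicate numbers, and for the same reason no library was left out. The deposited values carry no read counts, so the precision of each value is unknown, which bears most on low values such as 0.398 to 1.85 FPKM in *ros1* IM. The paper reports a requested depth per library and a total of mapped reads, which were not used here. It also reports that a smaller share of reads aligned in *ros1* than in wild type. The part of this in the differences between the genotypes was not tested. No gene of the set had a mean under 10 FPKM, so that alternative changed nothing and was not run.

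Of 220 alternative values, 201 kept their sign and stayed within 1.5-fold of a count or share, or within 0.585 log2 units of a median or a difference of medians. That bound is wide for the small differences between classes. Some of the 201 values could not change. An FPKM of at least 1 in either group left out no gene of the set. Centring shifts all genes alike and cannot move antenna minus core or photosystem I minus II. Such values say nothing about how firm a result is. Antenna minus core in *ros1* IM against WT IM went from -0.28 to -0.06 with the *LHCB1* copies summed, and photosystem I minus II in the wild-type response from -0.06 to between -0.13 and -0.0062. With a fold of 4, 23 genes were lower in WT IM, and 1 lower and 0 higher in *ros1* control against WT control. The count of 2 higher genes there was 1 after centring on all genes and 0 after centring on reference genes or with the *LHCB1* copies summed. Antenna minus core turned to 0.042 with a pseudocount of 10 and to 0.29 with the *LHCB1* copies summed in *ros1* IM against *ros1* control, and to 0.49 with a pseudocount of 10 in *ros1* IM against WT IM, where the antenna median was then -2.22. Among genes with at least 10 FPKM in WT control, the background was 20.2% lower in WT IM, 8.13% lower and 1.19% higher in *ros1* control, 10.8% higher in *ros1* IM against *ros1* control and 4.93% higher in *ros1* IM against WT IM. Among genes with values in all 4 groups, an alternative chosen after the data were seen, it was 15.6% lower and 11.9% higher in WT IM, and 7.44% lower and 4.58% higher in *ros1* control. The cause of these shifts was not tested.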
